A study of Mus musculus with 23 samples.

Results

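Agr2, the protein disulfide isomerases and the endoplasmic reticulum (ER) oxidoreductins were followed in the mouse pancreas while it recovered from acute pancreatitis. The group was set by gene symbol and held Agr2, Pdia2, Pdia3, Pdia4, Pdia5, Pdia6, P4hb, Txndc5, Ero1l and Ero1lb. All 10 symbols were among the 18512 in the count files, and all 10 had enough counts to be among the 12195 genes tested. The mice were C57BL/6 animals of both sexes, aged 6 to 8 weeks, in which pancreatitis had been induced by caerulein, an analog of cholecystokinin that overstimulates acinar cells. They received 8 hourly intra-peritoneal injections of 50 µg/kg on each of 2 consecutive days. RNA taken from the pancreatic head was sequenced in 8 non-injured mice (baseline; 4 females, 4 males), 8 mice on day 7 after injury (4 females, 4 males) and 7 mice on day 14 (3 females, 4 males). By design the groups differed in the caerulein injury and in the time since it, and not in genotype or strain. The study left out another day 14 female for a poor mapping rate. By its mapping statistics, the day 14 libraries used here also had a lower share of reads in untranslated regions at the start of transcripts than every other library. The baseline mice are called non-injured by the labels, which do not say whether they received a sham injection.

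Disulfide bonds in secreted proteins are made in the ER. A protein disulfide isomerase oxidises or rearranges the cysteines of its client through a pair of cysteines in a thioredoxin fold, and the ER oxidoreductins Ero1l and Ero1lb reoxidise the isomerase by passing electrons to oxygen. Acinar cells of the pancreas secrete large amounts of disulfide-bonded digestive enzymes and express several of these genes strongly. Pdia2 is the pancreatic family member. Agr2 is a small member of the family that is known from mucus-secreting epithelia, where it is required for mucin folding.

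The coding sequences show in what Agr2 differs from the rest. In the GENCODE vM21 transcripts, in-frame codons for cysteine, any residue, histidine and cysteine occurred 2 times in Pdia2, Pdia3, Pdia5, Pdia6 and P4hb and 3 times in Pdia4 and Txndc5, but not in Agr2, which has 1 site of cysteine, any residue, histidine and serine in its 175 codons. The stretches below are given 5′ to 3′ on the coding strand, with the codons of the outer pair of residues in capitals, for Agr2 and for the P4hb and Pdia2 sites it can be set beside.
Agr2, codons 81 to 84: ttggacgaaTGCccacacAGTcaagcctta
P4hb, codons 55 to 58: gccccgtggTGTggccacTGCaaagctctg
P4hb, codons 399 to 402: gccccttggTGTggtcacTGCaagcagcta
Pdia2, codons 74 to 77: gccccatggTGTggtcacTGCaaagaacta
Pdia2, codons 421 to 424: gccccatggTGCagccacTGCaaggagatg
In GRCm38 the Agr2 stretch runs from exon 4 to exon 5 at chr12:35996103-35997427 on the plus strand, around an intron. The P4hb stretches lie in exon 2 at chr11:120571696-120571725 and exon 9 at chr11:120562514-120562543, and those of Pdia2 in exon 2 at chr17:26198229-26198258 and exon 9 at chr17:26196570-26196599, all on the minus strand. Ero1l and Ero1lb had none of these sites; they use other cysteine pairs.

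The level of a gene is given as CPM, its counts per 1e+06 counts of a library whose size was scaled with TMM factors. Libraries held 7059890 to 9567446 counts. The 20 most abundant genes took 66.4% to 71.2% of the counts of a baseline mouse, 55.3% to 62.8% of a day 7 mouse and 63.9% to 66.2% of a day 14 mouse, so a level depends on how these genes enter the scaling. A gene was called between 2 groups when its adjusted p was 0.05 or less and it differed 1.5-fold or more. Acinar identity was seen in all groups: the 16 genes of the acinar marker list summed to between 417827 and 611577 CPM in baseline mice, between 247336 and 376241 in day 7 mice and between 383186 and 461648 in day 14 mice. Between baseline and day 7, 7 of these 16 genes were called lower and none higher, beside 1.31% and 3.82% of all genes. With total counts in place of TMM factors 1 was called lower and none higher, beside 0.172% and 30.1% of all genes. In RNA from whole tissue, fewer cells of a type and less RNA per cell cannot be told apart.

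Per length, the 10 genes spanned more than 3 orders of the decimal scale at baseline. CPM per kilobase of exon had medians of 2328 for Pdia2, 722 for P4hb, 157 for Ero1lb, 67.3 for Pdia6, 33.2 for Pdia3, 27.9 for Pdia4, 21.2 for Txndc5, 3.62 for Ero1l, 1.73 for Pdia5 and 1.0 for Agr2. In this order the ranges over the 8 baseline mice overlapped between Pdia3 and Pdia4, between Pdia4 and Txndc5 and between Pdia5 and Agr2, and no other neighbours overlapped. Agr2, lowest at baseline, stood eighth at day 7 with a median of 5.0 CPM per kilobase and ninth at day 14 with 2.82. The top 7 places were held by the same genes in the same order at all time points, although Pdia6 overlapped Pdia3 at day 7.

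Agr2 rose after injury. It lies at chr12:35992907-36004087 on the plus strand of GRCm38 and no other annotated exon overlaps its exons. At baseline the 8 mice had 0.704 to 1.85 CPM with a median of 1.30, which rests on 5 to 15 counts per mouse. At day 7 the range was 2.91 to 16.8 CPM with a median of 6.45 (28 to 192 counts), and at day 14 it was 1.76 to 5.76 CPM with a median of 3.64 (14 to 53 counts). All 8 day 7 mice and 6 of 7 day 14 mice were above every baseline mouse, and the remaining day 14 mouse, male 23 with 1.76 CPM, fell inside the baseline range.

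**Figure D1:**
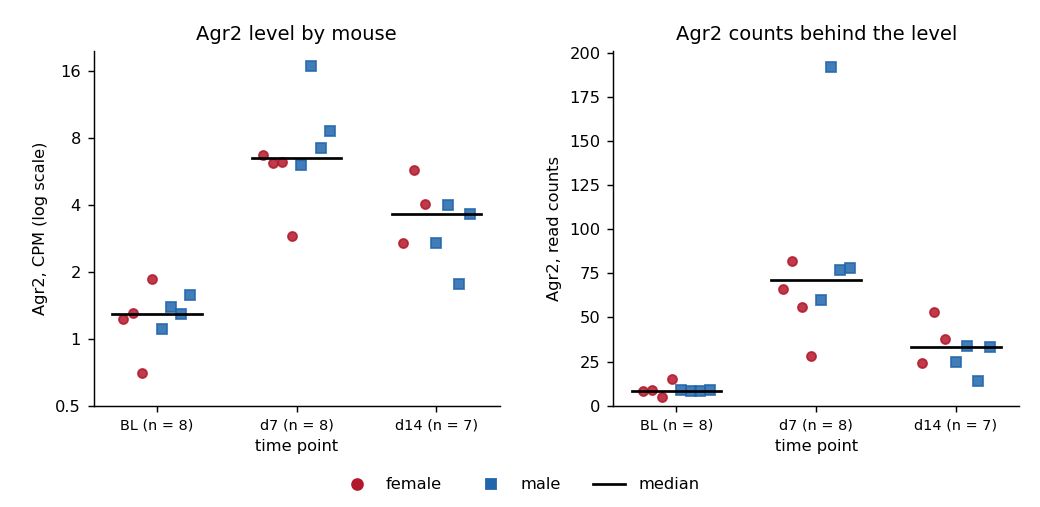
Agr2 by mouse in CPM on a log scale (left) and in read counts (right) at baseline, day 7 and day 14; each point is a mouse, red circles are females, blue squares males, and bars are medians. The day 7 mice lie between 2.91 and 16.8 CPM, above all baseline mice, and male 14 has the highest value.

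The log2 fold change of Agr2 was 2.5 (SE 0.30, adjusted p = 3.82e-06) from baseline to day 7 and 1.42 (SE 0.32, adjusted p = 0.0203) from baseline to day 14. These are a 5.67-fold and a 2.67-fold rise. Agr2 was the only member called in either comparison, that is 1 of 10; over all genes 3.82% were called higher and 1.31% lower at day 7, and 0.697% higher and 0.0902% lower at day 14. The day 14 call ended when female 19 was left out (log2 fold change 1.35, adjusted p = 0.0571).

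From day 7 to day 14 Agr2 fell by 1.08 on the log2 scale (SE 0.27, adjusted p = 0.0418), and 7 of 8 day 7 mice were above every day 14 mouse. Among all genes, 0.172% were called lower and 0.205% higher in this comparison, and no other member was called. This call lay close to the threshold: leaving out 1 mouse at a time gave adjusted p-values of 0.0112 to 0.0901 and ended it in 14 of 23 fits, with a log2 fold change of -0.82 to -1.28. Without male 14, the highest day 7 mouse, the log2 fold change was -0.82 (adjusted p = 0.0626). It was -0.41 in females alone (adjusted p = 0.837) and -1.66 in males alone (adjusted p = 0.0288).

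At day 7 the 4 males had 6.01 to 16.8 CPM of Agr2 and the 4 females 2.91 to 6.68 CPM, so the sexes overlapped. The difference between males and females at day 7 was 0.81 on the log2 scale (SE 0.30, adjusted p = 0.555), and the change from baseline to day 7 differed between the sexes by 0.77 (SE 0.54, adjusted p = 0.947). Agr2 was called at day 7 in females alone (log2 fold change 2.09, adjusted p = 0.00410) and in males alone (2.84, adjusted p = 2.73e-04). At day 14 it was called in neither alone, with a log2 fold change of 1.68 in females (adjusted p = 0.0873) and 1.17 in males (adjusted p = 0.403).

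None of the 7 tested genes known from mucus secretion or as partners of Agr2 was called higher with it at day 7 on the TMM scale. Over all genes 3.82% were called higher and 1.31% lower. With total count scaling 1 was called higher, Egfr (log2 fold change 0.62, adjusted p = 4.64e-06), beside 30.1% of all genes. At these shares 7 genes are too few to tell the list from all genes. The list of mucins, trefoil factors, mucous regulators and Agr2 partners had 17 of its 19 symbols in the files, and 7 passed the filter on low counts. Of these 1 was called lower, Fcgbp, a mucus component (log2 fold change -1.01, SE 0.26, adjusted p = 0.00631), a call that ended with total count scaling (log2 fold change -0.57). Its levels ranged from 0.867 to 2.91 CPM at baseline and from 0.373 to 1.30 CPM at day 7. The most abundant gene of the list was Tff2, a trefoil peptide, with medians of 2126, 1666 and 2033 CPM at baseline, day 7 and day 14; its log2 fold change at day 7 was -0.42 (adjusted p = 0.00116), under the fold threshold, and 0.02 with total count scaling. The medians of Muc2, Muc5ac, Muc5b, Muc6, Muc20, Tff1 and Tff3 were at most 0.142 CPM in every group. The mucin Muc1 was well above these, with medians of 82.0, 62.8 and 76.5 CPM at baseline, day 7 and day 14. Its log2 fold change at day 7 was -0.27 (edgeR adjusted p = 0.0539). The median log2 fold change of the 7 tested genes was -0.25, beside 0.02 over all genes, and 0.20 beside 0.47 with total count scaling.

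The levels of other cell types moved as well, and their part in the Agr2 values was not tested. From baseline to day 7, 4 of 12 ductal, 7 of 10 islet, 7 of 9 fibroblast and 8 of 10 macrophage marker genes were called higher, and none lower. The shares over all genes were 3.82% higher and 1.31% lower. The ductal list summed to between 198 and 280 CPM in baseline mice and between 220 and 342 CPM in day 7 mice. The islet list had 136 to 577 CPM at baseline and 423 to 1215 CPM at day 7, the fibroblast list 338 to 674 and 629 to 1204 CPM, and the macrophage list 56.7 to 212 and 135 to 313 CPM. None of the 6 tested endothelial, 5 plasma, B and T cell or 4 adipocyte markers was called at day 7 by the edgeR quasi-likelihood test or DESeq2, and 4 of the endothelial genes had an unadjusted p under 0.05. Of the 6 endothelial genes 5 had a negative log2 fold change (median -0.33, or 0.13 with total count scaling). By the edgeR test 2 of them passed the adjusted p alone, beside 18.6% of all genes. With total count scaling 6 of 12 ductal, 9 of 10 islet, 8 of 9 fibroblast, 10 of 10 macrophage and 1 of 6 endothelial marker genes were called higher. In that fit 30.1% of all genes were called higher. Of the list of tuft, mucous and intestinal markers, 6 of 11 symbols were in the files and only Dclk1 was tested (log2 fold change 0.62, adjusted p = 0.177), and it was called higher with total count scaling (1.1, adjusted p = 0.0101); the list summed to between 2.90 and 7.39 CPM in baseline mice, 4.07 and 12.2 CPM in day 7 mice and 3.01 and 8.49 CPM in day 14 mice. Within time points, over the 23 mice, Agr2 had a Pearson r of 0.24 with the summed ductal list, 0.27 with the fibroblast list, -0.05 with the macrophage list, -0.08 with the islet list and 0.13 with the tuft, mucous and intestinal list; these points share libraries and scaling, and the values are descriptions.

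The abundant isomerases of acinar cells stayed near their baseline levels on the TMM scale. Pdia2 (chr17:26195999-26199087, minus strand) had 3135 to 4724 CPM with a median of 4007 at baseline, 3044 to 4554 with a median of 3564 at day 7 and 3731 to 4434 with a median of 4079 at day 14. P4hb (chr11:120560298-120573253, minus strand), the namesake isomerase that is also a subunit of prolyl 4-hydroxylase, had medians of 2065, 1900 and 2105 CPM. The groups overlapped widely for both genes. The 95% interval of the log2 fold change from baseline to day 7 was -0.28 to 0.08 for Pdia2 and -0.27 to 0.07 for P4hb, and neither passed the test (adjusted p = 0.438 and 0.412).

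The direction of these changes depended on the scaling. With total counts in place of TMM factors the median log2 fold change of all genes moved to 0.47 at day 7 and 0.22 at day 14, and all 9 members other than Agr2 had positive values at both days, with medians of 0.41 and 0.26. The same genes had medians of -0.05 and 0.04 with TMM factors. Agr2 was called higher at both days with either scaling. With total counts Pdia3, Pdia4 and Pdia6 were called higher at day 7 as well, which made 4 of 10 members, beside 30.1% of all genes called higher in that fit.

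**Figure D2:**
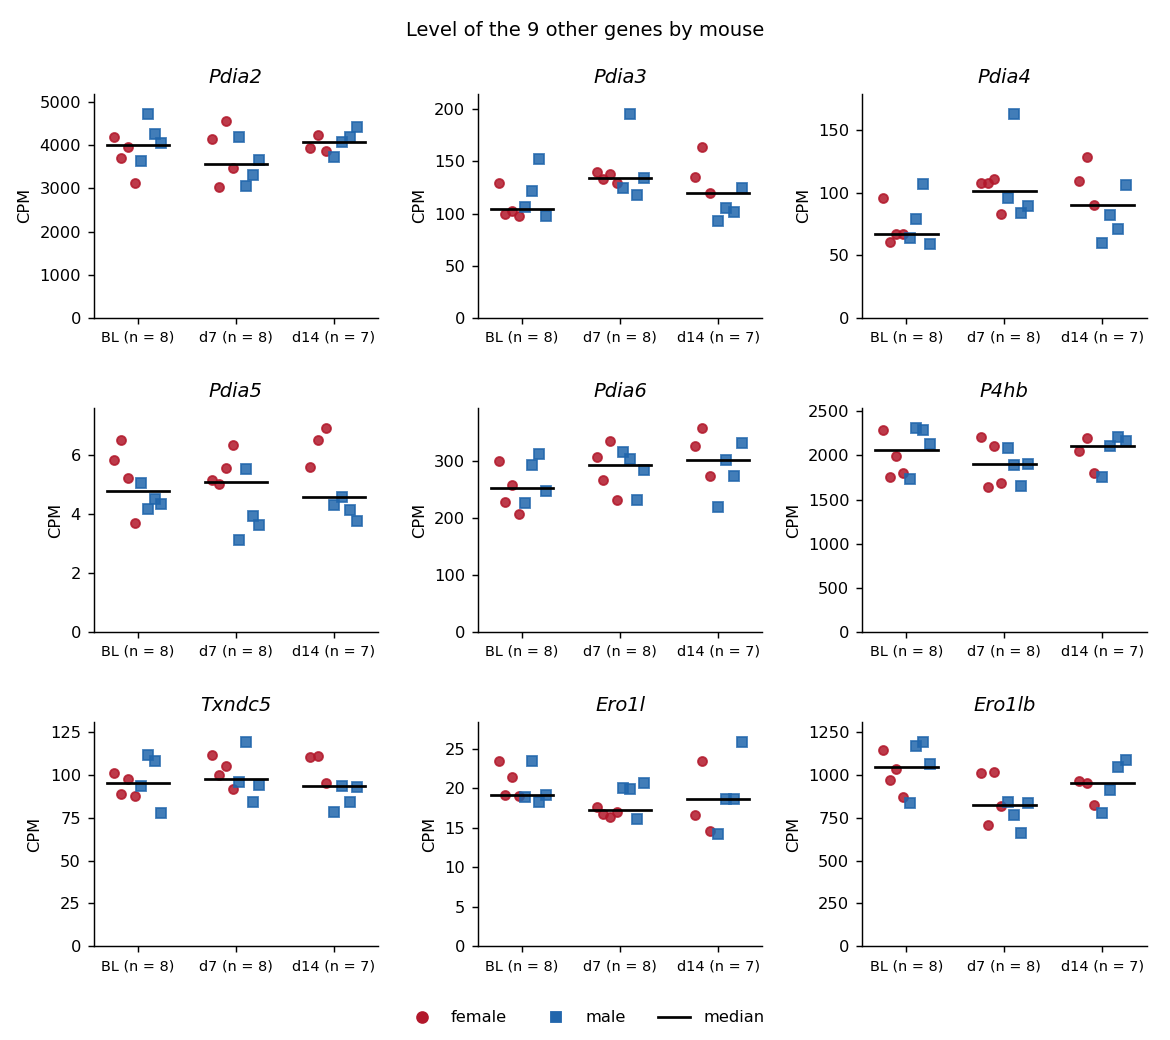
CPM of the 9 genes other than Agr2 by mouse at baseline, day 7 and day 14, with axes from 0; red circles are females, blue squares males and bars medians. The time points overlap in every panel, and male 14 stands above the other day 7 mice for Pdia3 (195 CPM) and Pdia4 (163 CPM).

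Pdia4 and Pdia3 were the members after Agr2 with the largest positive changes, and neither was called. Pdia4 (chr6:47796141-47813430, minus strand), an isomerase with 3 active sites, had 58.9 to 107 CPM with a median of 66.8 at baseline, 82.6 to 163 with a median of 102 at day 7 and 60.0 to 128 with a median of 90.0 at day 14. Of the day 7 mice, 4 of 8 were above every baseline mouse. Its log2 fold change at day 7 was 0.49 (SE 0.17, adjusted p = 0.0510). It became 0.35 (adjusted p = 0.125) without male 14 of day 7 and 0.60 (adjusted p = 0.0171), past both thresholds, without male 7 of baseline. Pdia3 (chr2:121413775-121438687, plus strand), which works on glycoproteins with calnexin and calreticulin, had medians of 104, 134 and 120 CPM, a log2 fold change at day 7 of 0.30 (SE 0.12, adjusted p = 0.0893), and 0.19 (adjusted p = 0.219) without male 14.

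Pdia6 (chr12:17266545-17284770, plus strand), an isomerase that associates with the chaperone Hspa5, had medians of 252, 293 and 302 CPM, and its largest change was 0.20 at day 14 (SE 0.10, adjusted p = 0.413). Txndc5 (chr13:38500079-38528824, minus strand) had medians of 95.4, 97.7 and 93.4 CPM and absolute log2 fold changes of at most 0.07 in the comparisons of time points. The annotated span of Txndc5 overlaps those of genes on the other strand, Bmp6 among them. Pdia3 (Catsper2) and Pdia6 (Atp6v1c2) also overlap a gene on the other strand. The strand setting of the counting is not given in the sources used here. Pdia5 (chr16:35397312-35490873, minus strand), an isomerase of low level, had medians of 4.78, 5.09 and 4.56 CPM on 24 to 67 counts per mouse.

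The oxidoreductins differed in level. Ero1lb (chr13:12565874-12611396, plus strand), the form enriched in secretory cells of the pancreas, had 834 to 1189 CPM with a median of 1047 at baseline, 660 to 1014 with a median of 827 at day 7 and 779 to 1085 with a median of 955 at day 14. At day 7, 4 of 8 mice were below every baseline mouse. Its log2 fold change at day 7 was -0.32 (SE 0.09, adjusted p = 0.0190), which passed the adjusted p alone and not the fold threshold, and 0.14 with total count scaling; 18.6% of all genes had an adjusted p of at most 0.05 in this comparison, and 2 of the 10 members did. Ero1l (chr14:45283087-45318771, minus strand), the widely expressed form, had medians of 19.1, 17.3 and 18.6 CPM and a log2 fold change at day 7 of -0.17 (adjusted p = 0.255). At day 14 1.57% of all genes passed the adjusted p alone, and Agr2 was the only member among them.

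**Figure D3:**
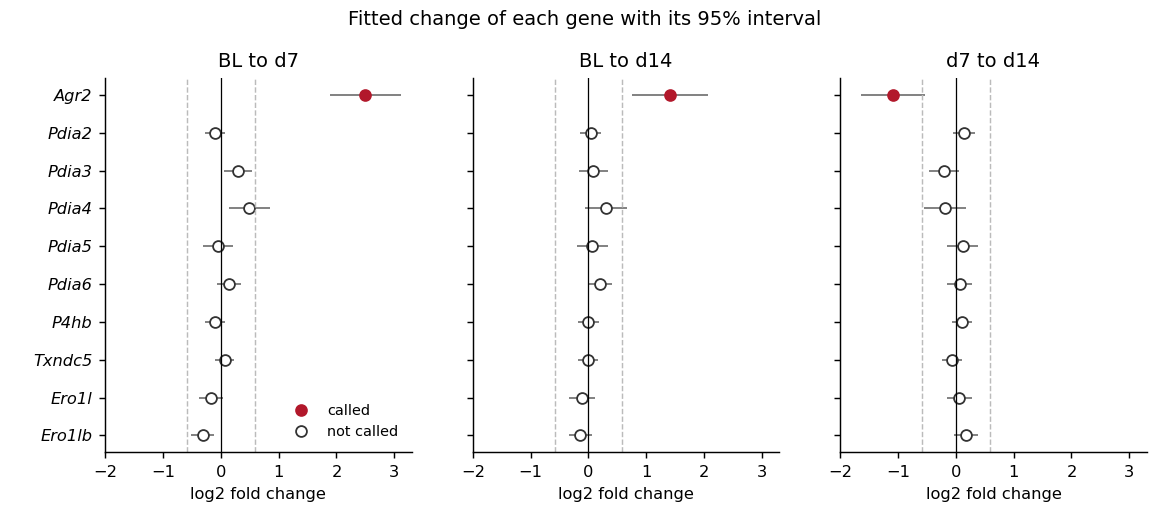
Log2 fold change of each of the 10 genes with its 95% interval for the 3 comparisons of time points; filled red points were called, open points were not, and dashed lines mark a fold of 1.5. Agr2 stands apart at 2.5, 1.42 and -1.08, and the 9 other genes lie between -0.32 and 0.49.

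Ratios of 2 genes in the same library need no scaling between libraries. The log2 ratio of Agr2 to P4hb ran from -11.3 to -9.88 in baseline mice, from -9.15 to -6.81 in day 7 mice and from -10.2 to -8.56 in day 14 mice. All 8 day 7 mice and 6 of 7 day 14 mice were above every baseline mouse. The mean rose by 2.46 from baseline (-10.56 ± 0.42, SD, n = 8) to day 7 (-8.10 ± 0.68, SD, n = 8) in the exact permutation test (two-sided p = 1.55e-04, 0.00140 adjusted over 9 tests). It was 1.32 higher at day 14 than at baseline (exact permutation p = 6.22e-04, adjusted 0.00280), and it fell by 1.14 from day 7 to day 14 (exact permutation p = 0.00218, adjusted 0.00653).

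The other 2 ratios passed no test after adjustment. The log2 ratio of Pdia2 to P4hb had means of 0.96 ± 0.10 (SD, n = 8), 0.95 ± 0.13 (SD, n = 8) and 1.0 ± 0.07 (SD, n = 7), and the 3 pairs of groups had adjusted exact permutation p-values of 0.526 to 0.936. The log2 ratio of Ero1lb to Ero1l had means of 5.66 ± 0.18 (SD, n = 8), 5.51 ± 0.25 (SD, n = 8) and 5.65 ± 0.21 (SD, n = 7), with adjusted exact permutation p-values of 0.436 to 0.936. Without female 11 of day 7 the latter was 0.21 lower at day 7 than at baseline (exact permutation p = 0.0432, not adjusted). In males alone it was 0.39 lower at day 7 than at baseline (exact permutation p = 0.0286, the smallest that 4 against 4 mice allow), and in females alone it was 0.096 higher (exact permutation p = 0.486).

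Set against the summed counts of the 16 acinar genes, the abundant members stood higher after injury. This ratio was chosen after seeing the data and is given without a test. The acinar list itself summed to medians of 530266, 327516 and 410391 CPM at baseline, day 7 and day 14. On the TMM scale the median log2 fold change of all genes at day 7 was 0.02. A gene whose CPM did not change would also stand higher in this ratio, so the rise is not particular to these members. For Pdia2 the log2 ratio ran from -7.16 to -6.99 in baseline mice, from -6.68 to -6.31 in day 7 mice and from -6.78 to -6.52 in day 14 mice, so that baseline did not overlap either later group. The mean difference from baseline was 0.61 at day 7 and 0.38 at day 14. For P4hb it was 0.61 and 0.34, and for Ero1lb 0.40 and 0.19, with 8 of 8 and 7 of 8 day 7 mice above every baseline mouse.

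**Figure D4:**
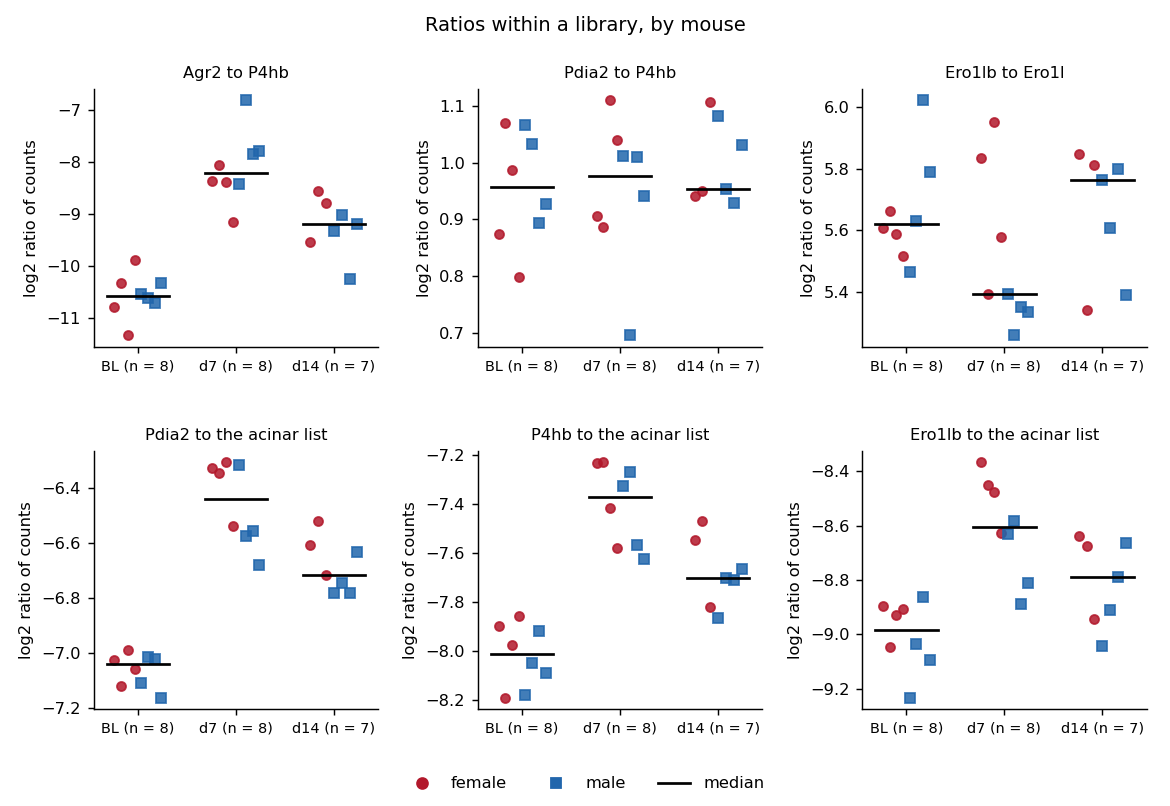
Log2 ratios of counts within a library, by mouse, at baseline, day 7 and day 14, for Agr2 to P4hb, Pdia2 to P4hb and Ero1lb to Ero1l (top) and for Pdia2, P4hb and Ero1lb to the summed acinar list (bottom); red circles are females, blue squares males, bars medians. For Agr2 to P4hb and for Pdia2 and P4hb to the acinar list all day 7 mice lie above all baseline mice. A lower acinar sum raises the bottom ratios for any gene.

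No member was called between the sexes over all time points by the edgeR quasi-likelihood test or by DESeq2, and 1 of 10, Pdia5, had an unadjusted p under 0.05, beside 9.0% of all genes; over all genes 0.0902% were called higher and 0.139% lower in males. Pdia5 had a log2 difference of -0.42 between males and females (SE 0.11, adjusted p = 0.0701), a 1.34-fold lower level in males. At day 14 its 3 females had 5.60 to 6.90 CPM and its 4 males 3.75 to 4.56 CPM without overlap; at day 7 the ranges were 5.01 to 6.33 and 3.10 to 5.51 CPM, and at baseline 3.70 to 6.51 and 4.16 to 5.05 CPM. The sexes did not overlap at day 14 for Txndc5 either (94.9 to 111 CPM in females, 78.4 to 93.4 CPM in males). With so few mice this can arise by chance, and the share of all genes without overlap was not counted. For Pdia5, the test within each time point follows. The difference between males and females was -0.22 in baseline, -0.44 in day 7 and -0.60 in day 14 mice (adjusted p = 0.948, 0.590 and 0.421). The change of the sex difference from baseline to day 7 or to day 14 had a smallest adjusted p over the 10 members of 0.947 and 1.0.

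The genes varied together to very different degrees among mice of the same time point. Over the 23 mice, with the mean of each time point removed from log2 CPM, the 36 pairs of members without Agr2 had a median Pearson r of 0.45 (-0.22 to 0.96), and the 9 pairs with Agr2 had a median of 0.27 (-0.18 to 0.52). These are descriptions over libraries that share depth and scaling. Pdia3, Pdia4 and Txndc5 had r of 0.86 to 0.96 with each other, and P4hb, Ero1lb and Pdia2 had r of 0.81 to 0.90. Pdia6 had r of 0.69 to 0.85 with the members of both sets. Pdia5 had r of at most 0.38 with any other member.

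**Figure D5:**
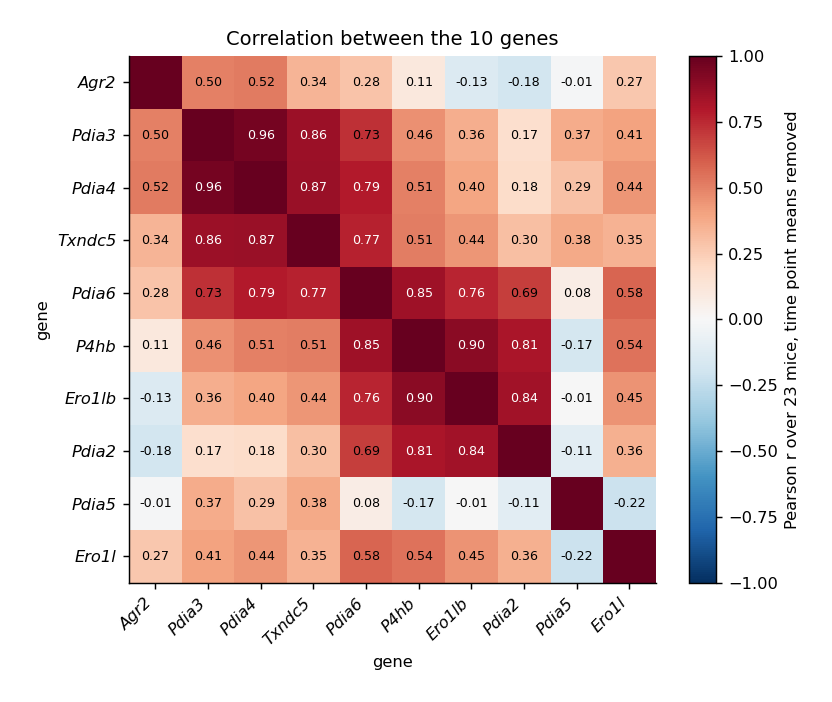
Pearson r of log2 CPM between the 10 genes over 23 mice after the mean of each time point was removed, on a color scale from -1 (blue) to 1 (red). Pdia3, Pdia4 and Txndc5 (0.86 to 0.96) and P4hb, Ero1lb and Pdia2 (0.81 to 0.90) form blocks, and the Agr2 row is pale with a highest value of 0.52.

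Among all tested genes, those most like Pdia3 within time points were Pdia4 (r = 0.96), Manf (0.95), a secreted ER stress protein, and Hspa5 (0.94), the main ER chaperone. The genes most like Pdia4 were Pdia3, Manf and Creld2 (0.91), those most like Pdia6 were Sdf2l1 (0.96), Dnajc3 (0.95) and Dnajb11 (0.93), all partners of Hspa5, and those most like Txndc5 were Calr (0.91), Armcx3 (0.88) and Pdia4 (0.87). For P4hb they were Nucb2 (0.96), Ufm1 (0.94) and Tram1 (0.94), for Ero1lb Alg5 (0.94), Nucb2 (0.93) and Os9 (0.93), for Pdia2 Rnase1 (0.90), Cuzd1 (0.90) and Uqcrq (0.89), and for Ero1l Yrdc (0.81), Trmt61b (0.77) and Atf4 (0.76). Pdia5 was most like Kdm5c (0.83), Xist (0.80), which are both on the X chromosome, and Marf1 (0.75); with the mean of each sex removed as well, r was 0.67, 0.54 and 0.70. The highest r with Agr2 were 0.73 for Cnnm2, 0.70 for Pomk, Vps72 and Pmf1, 0.67 for Pcdhga10 and Eda2r, 0.65 for Wdr83os and 0.62 for Gmcl1. With the mean of each sex removed as well, r was 0.84 for Pmf1 and 0.56 to 0.67 for the other 7 genes. These were picked as the largest values over all tested genes. Agr2 had only 5 to 15 counts in a baseline mouse, and Pmf1 had a median of 1.21 CPM. Whether such values exceed those that noise gives was not tested. None of these 8 genes but Eda2r (log2 fold change 0.70, adjusted p = 0.0196) had an adjusted p of at most 0.05 at day 7.

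Of 74 other tested genes of ER protein folding, redox and mucus secretion, 2 (2.70%) were called at day 7 by the edgeR quasi-likelihood test and 2 by DESeq2, beside 5.13% of all genes by edgeR. An unadjusted p under 0.05 was found for 28 (37.8%), beside 32.2% of all genes. With total count scaling 21 of the 74 (28.4%) were called, all higher, beside 30.1% of all genes. Among 12 tested ER proteins with a thioredoxin fold other than the members, none was called and the median log2 fold change was 0.07. In this list 4 genes passed the adjusted p alone, beside 18.6% of all genes. The smallest adjusted p-values, picked after they were seen, were those of Tmx3 and Txndc11. Tmx3 had 0.48 (adjusted p = 9.41e-06), or 0.94 with total count scaling. Txndc11 had -0.44 (adjusted p = 3.14e-04), or 0.0070 with total count scaling. The most abundant gene was Sep15 (0.26, adjusted p = 0.0268, or 0.72 with total count scaling). Among 6 other thiol oxidases and peroxidases of the ER, 1 was called higher, Gpx8, an ER peroxidase that went from 2.42 to 4.29 CPM at baseline to 3.52 to 5.78 CPM at day 7 (log2 fold change 0.66, SE 0.15, adjusted p = 0.00244). With total count scaling the log2 fold change of Gpx8 was 1.13. Of the 6, 4 passed the adjusted p alone, beside 18.6% of all genes. Prdx4, the most abundant of them, had a log2 fold change of 0.25 (adjusted p = 0.0270), or 0.70 with total count scaling. Qsox1, a sulfhydryl oxidase picked after its value was seen, had -0.42 (adjusted p = 2.43e-04), or 0.029 with total count scaling.

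None was called among 3 partner subunits of P4hb (P4ha1 0.02), 7 genes of the calnexin cycle (Canx -0.01), 15 ER chaperones (Hspa5 0.10, adjusted p = 0.739), 12 regulators of the unfolded protein response (Xbp1 -0.12, adjusted p = 0.323) or 12 thiol redox genes of the cytosol and mitochondria (Txn1 0.00). At an adjusted p of at most 0.05 alone, 1 chaperone and 3 regulators passed, beside 18.6% of all genes. The median log2 fold changes of these lists at day 7 were 0.02, 0.00, 0.05, -0.13 and -0.01, beside 0.02 over all genes. At day 14 no gene of any list of ER folding, redox or mucin genes was called other than Agr2, by edgeR or DESeq2, while 11 of the 74 (14.9%) had an unadjusted p under 0.05, beside 13.3% of all genes, and the smallest adjusted p was 0.0799.

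Promoter sequence was examined for elements that are known to bind factors of the unfolded protein response. All 10 genes had at least 1 RefSeq window (GRCm38.p6) of 250 bases before to 50 after the start, 12 windows in all. The ER stress element, CCAAT and CCACG separated by 9 bases on either strand, was in the windows of Pdia6 and Ero1lb, against 0.119% of all 32851 windows. The core TGACGTG was in 1 window of Txndc5, against 2.01% of all windows, and the element ERSE-II, ATTGG and CCACG separated by 1 base, was in none of the members and in 0.0365% of windows. The matches are shown because Pdia6 was among the genes that varied with the chaperones and Ero1lb was the member other than Agr2 with an adjusted p of at most 0.05 at day 7, with the fixed letters in capitals, 5′ to 3′ on the strand of the gene.
Pdia6, 98 to 80 bases before the start: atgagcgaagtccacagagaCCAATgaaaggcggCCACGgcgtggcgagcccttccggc
Ero1lb, 201 to 183 bases before the start: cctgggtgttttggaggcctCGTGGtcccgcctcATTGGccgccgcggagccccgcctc
Txndc5, 138 to 132 bases before the start: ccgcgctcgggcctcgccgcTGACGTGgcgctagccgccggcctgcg
They lie at chr12:17266471-17266529 on the plus strand, chr13:12565662-12565720 on the plus strand and chr13:38528026-38528072 on the minus strand. The Txndc5 stretch lies inside the annotated gene, which begins at 38528824 on the minus strand. The start it precedes is therefore internal to the gene. In the GENCODE transcript used for the coding sequence, the Txndc5 stretch falls between exons 1 and 2. A match describes letters in the window and is no evidence of binding, and none of these complete elements was found for Agr2.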

How the data were processed

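RNA taken from the pancreatic head of 23 mice was depleted of ribosomal RNA and sequenced as paired 75 bp reads from a stranded kit. The deposited values are raw counts per gene symbol: according to the labels and the methods of the study, the authors trimmed the reads (Trim Galore, cutadapt), aligned them to mm10 with STAR 2.5.2a and counted them with featureCounts; the strand setting is not given in the sources used here. All values were checked to be whole numbers; 17762 of 18512 symbols matched GENCODE vM21 (GRCm38).

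For genes kept by filterByExpr, edgeR 4.0.16 (with R 4.3.3 and limma 3.58.1) computed TMM factors and the quasi-likelihood F test (glmQLFit with robust estimation, glmQLFTest). A single model held all 23 mice, with time point and sex as terms. The two-sided p-values were adjusted by the Benjamini-Hochberg method over all 12195 genes. The SE restates the F test and is not a separate estimate. Log2 CPM used a prior count of 2, ratios a pseudocount of 0.5 counts and exact permutation tests over mice (scipy 1.17.1). The fit was tested on simulated data. Replicates are different mice; the low counts of Agr2 and Pdia5 limit their precision.

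All 10 members were named, with up to 4 called genes of each other list by size of change, its most abundant gene, and the genes most like each member (8 for Agr2, 3 for the others). The members and lists were chosen with earlier results of these data known. Alternatives were DESeq2 1.42.0, other scalings and filters, no sex covariate, each sex alone, only the mice compared, no fold threshold, a pseudocount of 2, and leaving out each mouse. Sequences come from RefSeq promoter windows and GENCODE transcripts; proteins were not analysed here.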

Additional observations from a re-analysis of the deposited data

Results flagged for a closer look

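Male 14 of day 7 stood apart from the other 7 mice of its group for 2 genes, by Dixon's test at the 95% level, out of 30 combinations of gene and group examined; chance alone marks about 1 in 20. Pdia3 had a log2 CPM of 7.61 (195 CPM, 2233 counts) in this mouse, beside 6.89 to 7.13 (118 to 140 CPM) in the others. Pdia4 had a log2 CPM of 7.35 (163 CPM, 1858 counts), beside 6.37 to 6.80 (82.6 to 111 CPM).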

How the results depend on the processing

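The rise of Agr2 at day 7 passed both thresholds under every alternative that kept Agr2 in the test (log2 fold change 2.09 to 2.96) and without any 1 mouse (2.25 to 2.63). A minimum of 10 counts in every mouse removed Agr2, which has as few as 5, and left 0 members called at day 7, at day 14 and between them. The day 14 call ended in females alone and in males alone (0 members called) and without female 19; the counts without 1 mouse were 1 to 2 at day 7 and 0 to 1 at day 14 and from day 7 to day 14. The call from day 7 to day 14 also ended with no filter on low counts, with only the mice compared and in females alone (0 members each); DESeq2 gave Agr2 no adjusted p there. Total count scaling called 4 members at day 7, and no fold threshold called 2. No paired analysis was possible because the mouse numbers are distinct. Apart from these, the counts of called members stayed within 1.5 times.

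The following values, of members not called in the main comparison, changed sign; the cause was not tested, except that total count scaling moves the median of all genes. With total count scaling the log2 fold changes at day 7 were 0.35 for Pdia2, 0.41 for Pdia5, 0.35 for P4hb, 0.28 for Ero1l and 0.14 for Ero1lb. At day 14 they were 0.22 for P4hb, 0.21 for Txndc5, 0.10 for Ero1l and 0.082 for Ero1lb. From day 7 to day 14 they were -0.085 for Pdia2, -0.12 for Pdia5, -0.17 for Pdia6, -0.13 for P4hb, -0.18 for Ero1l and -0.053 for Ero1lb, and between the sexes -0.039 for Pdia2, -0.034 for P4hb and -0.0076 for Ero1l. Without the 20 most abundant genes in the scaling they were 0.031 for Pdia5 at day 7, 0.018 for P4hb and 0.010 for Txndc5 at day 14, and -0.0014 for Ero1l from day 7 to day 14. With no filter P4hb had 0.0084 and Txndc5 0.0025 at day 14, with at least 10 counts 0.0076 and 0.0014, and P4hb had 0.0011 without the sex covariate. In females alone the values were 0.018 for Pdia2 and 0.057 for Pdia5 at day 7, 0.031 for P4hb and 0.17 for Txndc5 at day 14, and 0.042 for Pdia3, 0.088 for Pdia4 and 0.041 for Txndc5 from day 7 to day 14. In males alone they were -0.0090 for Txndc5 at day 7, -0.026 for Pdia2, -0.18 for Pdia3 and -0.12 for Pdia5 at day 14, and -0.00012 for Pdia6 from day 7 to day 14.

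Without 1 mouse, the ranges that crossed 0 were -0.13 to 6.6e-05 for Pdia5 at day 7, -0.0012 to 0.081 for Pdia2, -0.0035 to 0.17 for Pdia3, -0.0085 to 0.12 for Pdia5, -0.036 to 0.033 for P4hb and -0.044 to 0.036 for Txndc5 at day 14, and -0.026 to 0.12 for Ero1l from day 7 to day 14. Among the ratios, Agr2 to P4hb in females alone differed by 1.62 at day 14 (exact permutation p = 0.0571, the smallest that 4 against 3 mice allow) and by -0.47 from day 7 to day 14 (exact permutation p = 0.286). Pdia2 to P4hb differed by 0.053 at day 7 in females alone and by -0.029 to 0.030 without 1 mouse. Ero1lb to Ero1l differed in females alone by 0.096 at day 7, 0.074 at day 14 and -0.022 from day 7 to day 14, and in males alone by -0.39 at day 7; without 1 mouse it differed by -0.21 (without female 11 of day 7, exact permutation p = 0.0432) to -0.096 at day 7 and by -0.040 to 0.044 at day 14.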
